A study of Homo sapiens with 6 samples.

Results

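The granule protein genes MPO, PRTN3, AZU1, ELANE, LYZ and RNASE2 were followed by name in RNA sequencing of Kasumi-1 cells, as 6 of the 7983 genes in the deposited table. They were chosen because their levels differed between the groups in these same libraries, so their differences are given as a description, with no test. Kasumi-1 is a human acute myeloid leukaemia line that carries the t(8;21) translocation, which joins RUNX1 to RUNX1T1. The first group, SETD8 knockout (3 libraries), had been given a CRISPR/Cas9 guide against SETD8, a histone H4 lysine methyltransferase whose gene symbol is now KMT5A. The second group, sgNT control (3 libraries), had a non-targeting guide, is labelled WT and was grown in the same medium. The labels do not say whether the knockout was a clone or a mixed population, or whether each numbered library came from its own culture or guide, so the p-values rest on a spread between libraries that could be technical. KMT5A, the targeted gene, read 880, 933 and 939 normalized counts in knockout and 1191, 1212 and 1255 in control (limma-trend adjusted p = 5.65e-05).

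Neutrophil precursors make their granule proteins in sequence, and those of the azurophil (primary) granule come first, at the promyelocyte stage. Myeloperoxidase is the heme enzyme of that granule and makes hypochlorous acid. Proteinase 3 and neutrophil elastase are its serine proteases, and azurocidin is a related protein that kills bacteria without protease activity. Lysozyme cleaves bacterial cell walls and is also made by monocytes. RNASE2 encodes eosinophil-derived neurotoxin, a ribonuclease of eosinophil granules that is also found in neutrophils and monocytes. Transcription of azurophil granule genes in myeloid precursors depends on C/EBP factors, PU.1, MYB and RUNX1, and the RUNX1::RUNX1T1 fusion protein is known to repress genes of granulocyte maturation.

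Promoter sequences from RefSeq (GRCh38.p14) were available for PRTN3, AZU1 and RNASE2, 3 of the 6 genes, and are shown because these genes were higher in knockout cells together. RNASE3, the paralog next to RNASE2, is shown beside it. Each line gives the 250 bases before the RefSeq start site, on the coding strand, and capitals mark matches to the searched motifs. The RefSeq start of AZU1 lies 2740 bases after the start of the gene in the table.
PRTN3 (chr19:840749-840998, plus strand): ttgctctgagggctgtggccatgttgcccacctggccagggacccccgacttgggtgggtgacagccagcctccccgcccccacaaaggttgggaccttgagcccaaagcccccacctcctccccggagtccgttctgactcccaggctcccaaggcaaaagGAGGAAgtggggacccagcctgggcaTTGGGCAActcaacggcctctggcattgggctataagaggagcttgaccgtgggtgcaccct
AZU1 (chr19:827587-827836, plus strand): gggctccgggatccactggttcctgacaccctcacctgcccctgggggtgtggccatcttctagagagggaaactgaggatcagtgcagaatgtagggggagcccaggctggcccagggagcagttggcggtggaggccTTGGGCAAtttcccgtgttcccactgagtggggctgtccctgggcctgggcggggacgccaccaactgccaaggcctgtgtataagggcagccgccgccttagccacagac
RNASE2 (chr14:20955237-20955486, plus strand): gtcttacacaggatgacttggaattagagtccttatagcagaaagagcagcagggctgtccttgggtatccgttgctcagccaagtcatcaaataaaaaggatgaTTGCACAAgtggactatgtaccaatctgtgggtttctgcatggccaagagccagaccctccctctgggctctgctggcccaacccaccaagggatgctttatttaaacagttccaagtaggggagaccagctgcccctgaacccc
RNASE3 (chr14:20891135-20891384, plus strand): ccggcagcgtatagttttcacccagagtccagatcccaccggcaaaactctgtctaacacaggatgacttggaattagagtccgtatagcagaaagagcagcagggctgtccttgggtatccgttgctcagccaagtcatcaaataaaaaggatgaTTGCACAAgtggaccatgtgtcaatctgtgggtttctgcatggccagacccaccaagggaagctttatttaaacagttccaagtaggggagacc
The motifs were TGTGGT for RUNX factors, GAGGAA for PU.1 and other ETS factors, TAACNG for MYB, TTNNGNAA for C/EBP factors and TATAAA for the TATA box, each searched on both strands. Matches did not overlap one another in these 4 windows. PRTN3 and AZU1 both held the C/EBP letters as ttgggcaa, at 62 to 55 and at 111 to 104 bases before the start. RNASE2 and RNASE3 both held them on the reverse strand, printed as ttgcacaa, at 145 to 138 and at 94 to 87 bases before the start. PRTN3 also held the ETS letters, at 88 to 83 bases before the start. The windows of CFD and PRSS57, genes near PRTN3 and AZU1 that are described below, were searched too and are not printed. CFD held none of the motifs. PRSS57 held only the RUNX letters, on the reverse strand as accaca, at 77 to 72 bases before the start. Of 35116 RefSeq windows of the same length, 33.2% held the C/EBP letters, 23.6% the ETS letters, 11% the RUNX letters, 17.6% the MYB letters and 10.7% the TATA letters. The exact runs ttgggcaa and ttgcacaa, looked up after they had been seen, were in 0.769% and 0.655% of windows. The RNASE2 and RNASE3 windows shared 193 of 199 aligned bases, with 102 gap positions, or 77.2% of the window length. Their matches are therefore not independent.

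**Figure D1:**
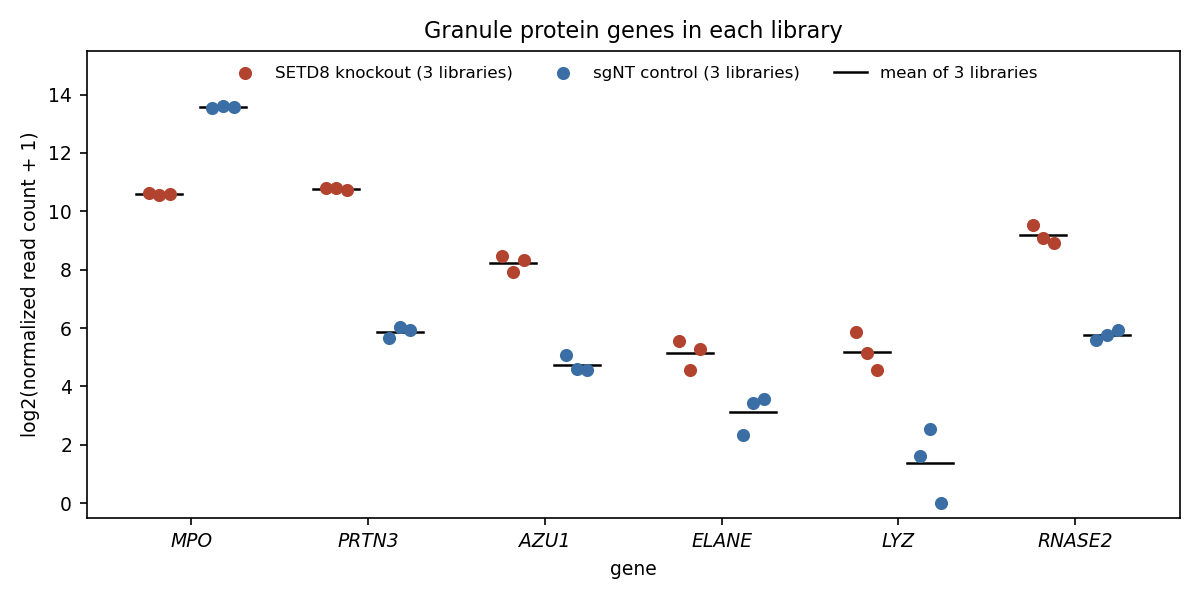
Level of each granule protein gene, as log2(normalized read count + 1), in 3 SETD8 knockout libraries (red) and 3 sgNT control libraries (blue), with a black bar at the mean of the 3 libraries. MPO is the 1 gene whose knockout points lie below the control points. The LYZ point at 0 is control 3.

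MPO was the most abundant of the 6 transcripts per kb in control cells and was lower in every knockout library. MPO (ENSG00000005381, chromosome 17, 58269856 to 58280935, minus strand, hg38) read 1570, 1515 and 1539 normalized counts in knockout 1, 2 and 3, against 11862, 12604 and 12297 in control 1, 2 and 3. The highest knockout library was far below the lowest control library, and the spread within each group was small. The means were 1541 ± 27.3 in knockout and 12254 ± 373 in control (SD, n = 3 each), a log2 fold change of -2.99 (SE 0.05), knockout over control. Log2 fold changes were taken from log2(normalized count + 1), and so understate the change of genes with few reads. Across the 6 genes, 5 were higher and 1 was lower without overlap between the groups. Of the 7516 genes tested, 48.0% were higher without overlap and 47.4% lower, and nothing is read from the members' count, since they were chosen on this contrast.

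The 3 serine protease family genes of chromosome 19 were higher in every knockout library, by different amounts. PRTN3 (ENSG00000196415, chromosome 19, 840960 to 848175, plus strand) read 1796, 1772 and 1694 in the knockout libraries and 49.1, 65.1 and 60.4 in the control libraries. Its log2 fold change was 4.90 (SE 0.12), the 17th most positive of the 7516 tested genes. The coefficient of variation between knockout libraries was 3.04% for PRTN3 and 1.77% for MPO, and above 18% for the other 4 genes.

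AZU1 (ENSG00000172232, chromosome 19, 825097 to 832018, plus strand) read 354, 243 and 317 in the knockout libraries and 32.7, 23.3 and 22.8 in the control libraries. The groups did not overlap, and the log2 fold change was 3.49 (SE 0.22). ELANE (ENSG00000197561, chromosome 19, 851014 to 856247, plus strand), the elastase gene in which inherited variants cause severe neutropenia, stayed a low transcript in both groups. It read 45.9, 22.8 and 38.3 in the knockout libraries and 4.09, 9.72 and 10.9 in the control libraries. These values rest on 108 reads in knockout and 25 in control, 4.29 times as many (2.76 to 6.92, exact 95% binomial bounds). This interval, like the others on reads here, covers counting error only. The lowest ELANE knockout library lay above the highest control library, with a log2 fold change of 2.03 (SE 0.46). The authors' deposited table gave 2.11 for ELANE, 3.54 for AZU1 and 4.91 for PRTN3.

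RNASE2 and LYZ, on chromosomes 14 and 12, were also higher in every knockout library, with a wide spread among those libraries. RNASE2 (ENSG00000169385, chromosome 14, 20955452 to 20956436, plus strand) read 735, 546 and 481 in the knockout libraries and 47.0, 53.5 and 60.4 in the control libraries, a log2 fold change of 3.41 (SE 0.17). Its knockout libraries differed by more than counting noise, with a chi-square per degree of freedom of 29.7, against 0.836 in control.

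LYZ (ENSG00000090382, chromosome 12, 69348341 to 69354234, plus strand) read 57.3, 34.8 and 22.4 in the knockout libraries and 2.04, 4.86 and 0 in the control libraries. LYZ had 114 reads over the knockout libraries and 7 over the control libraries, 16.2 times as many (7.60 to 41.1, exact 95% binomial bounds). The 0 in control 3 allows a level of up to 3.66 normalized counts, the upper end of its exact 95% Poisson interval. Its log2 fold change of 3.81 (SE 0.65) went to 3.11 without control 3 and to 4.39 without control 2. An annotated gene on the other strand, AC020656.1, overlaps LYZ, and no source used here says whether reads were counted by strand, so LYZ is uncertain in that respect.

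Knockout 1 had the highest level of all 6 genes among the knockout libraries, MPO included. That library also had the highest share of reads from mitochondrial DNA, 5.86% against 4.88% in each of the other knockout libraries and 4.62% to 4.95% in control. The part of that library was not tested beyond leaving it out, which gave log2 fold changes of 1.82 for ELANE and 3.47 for LYZ, as against 2.03 and 3.81 with it.

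Per kb of the table's gene length, the order of the 6 genes differed between the groups. That length can exceed a single transcript: for AZU1 it is 1783 bases, and the principal annotated transcript has 908. With each normalized count divided by the table's gene length in kb, MPO made up 14.8% ± 1.04 of the summed level of the 6 genes in knockout libraries and 96.0% ± 0.311 in control libraries (SD, n = 3 each). PRTN3 made up 51.7% ± 3.14 in knockout and 1.40% ± 0.155 in control, and RNASE2 26.0% ± 3.54 in knockout and 1.96% ± 0.214 in control. The ratio of PRTN3 to MPO per kb was 3.52, 3.60 and 3.39 in the knockout libraries and 0.0127, 0.0159 and 0.0151 in the control libraries. The summed level per kb of all 6 genes was 2973 ± 255 in knockout and 3621 ± 119 in control. Before division by length, the 6 genes took 0.0355% ± 0.00160 of all listed normalized counts in knockout and 0.109% ± 0.00272 in control, so how far the total differed depends on the scale. Without MPO, the sum per kb of the other 5 genes was 2536 ± 248 in knockout and 145.9 ± 15.1 in control. In bulk RNA, fewer cells of a type and less RNA per cell cannot be told apart, so these values do not say whether each cell changed or the mixture of cells did.

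**Figure D2:**
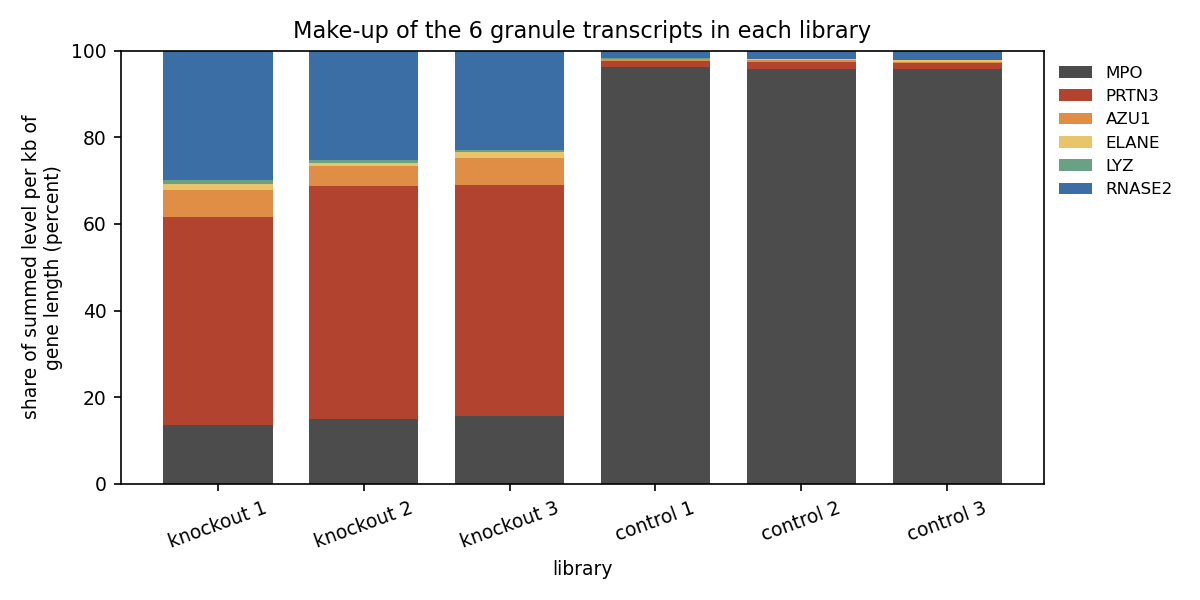
Share of each gene in the summed level of the 6 granule protein genes, in percent after division by gene length, in each library. MPO takes 13.6% to 15.7% of the knockout bars and 95.7% to 96.3% of the control bars, and PRTN3 and RNASE2 take most of the rest in knockout.

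AZU1, PRTN3 and ELANE lie side by side on the plus strand of chromosome 19, with 8941 bases between AZU1 and PRTN3 and 2838 between PRTN3 and ELANE. No other annotated gene overlaps any of the 3 genes in GENCODE release 29. Their changes within this stretch were unequal: per kb, PRTN3 over ELANE was 35.1, 69.6 and 39.7 in the knockout libraries and 10.8, 6.01 and 4.97 in the control libraries. PRTN3 over AZU1 was 7.88, 11.3 and 8.30 in knockout and 2.33, 4.34 and 4.13 in control. The AZU1 length used, 1783 bases, exceeds its principal annotated transcript of 908 bases. The size of this ratio in either group therefore depends on the length used. The longest identical run between their annotated transcripts was 25 bases, between PRTN3 and ELANE, and the read length is not given in the labels.

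The tested genes around the chromosome 19 trio, which the choice of members did not use, were also higher in knockout cells. Within 500 kb on either side, 21 other genes were in the table and 19 were tested. Of 40 annotated protein-coding genes there, 20 were in the table, which lists only genes with an unadjusted p up to 0.049998. The rest of the stretch was not seen. At an adjusted p under 0.05 (Benjamini-Hochberg, limma-trend) 19 were called higher and 0 lower, and the median log2 fold change was 0.42. Leaving out 1 library gave 17 to 19. Over all 7516 genes, 47.3% were called higher and 46.7% lower, and the median was 0.14. On chromosome 19 as a whole, 64.2% of 509 tested genes were called higher, with a median of 0.33.

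The nearest tested gene was CFD, which encodes complement factor D, another member of the serine protease family, and lies 3395 bases beyond ELANE. CFD read 680, 756 and 687 in the knockout libraries and 209, 167 and 232 in the control libraries, a log2 fold change of 1.81 (SE 0.12, limma-trend adjusted p = 4.72e-11). On the other side, PRSS57, which encodes the azurophil granule protease NSP4, read 2071, 2125 and 1904 in knockout and 849, 878 and 756 in control (log2 fold change 1.30, SE 0.07, limma-trend adjusted p = 3.22e-12). CFD and PRSS57 had the largest changes of the 19 neighbours, and the other 17 ranged from 0.22 to 0.90. MED16, a subunit of the Mediator complex and the next gene after CFD, had a log2 fold change of 0.40 (limma-trend adjusted p = 3.23e-05). PLPPR3, directly before AZU1, was too low to be tested, at 1.04, 11.9 and 15.9 in the knockout libraries and 0, 0.972 and 0 in the control libraries. Some of these neighbours overlap one another, such as BSG with AC009005.1, and those are uncertain without strand.

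**Figure D3:**
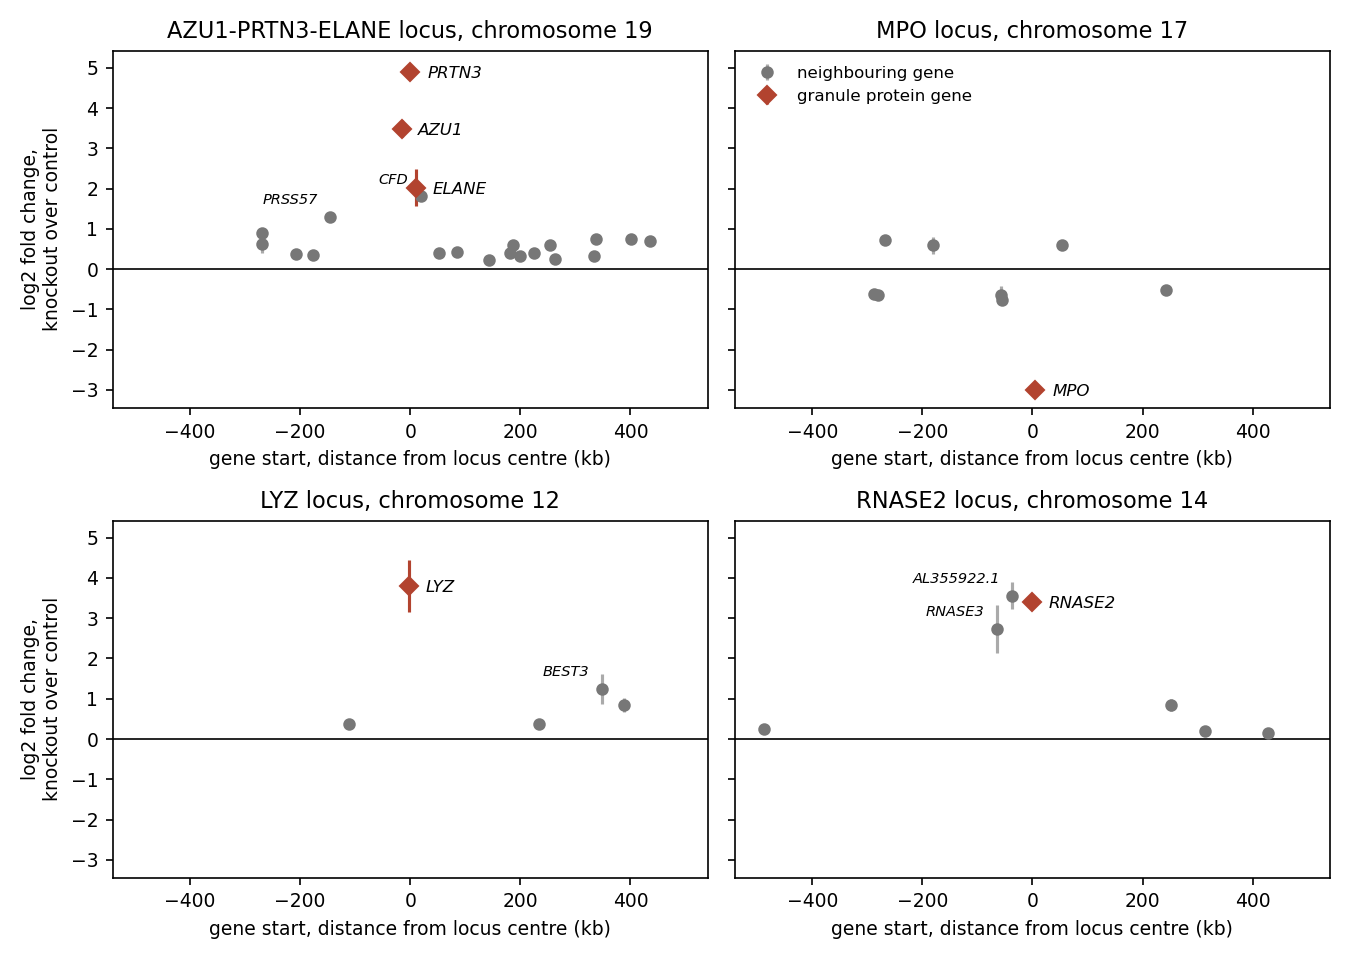
Log2 fold change (knockout over control) of the granule protein genes (red diamonds) and of tested genes within 500 kb (grey circles), by the distance of the gene start from the centre of the locus in kb, with bars of 1 standard error. All 19 grey points of the chromosome 19 panel lie above 0, and in the MPO panel 5 of 8 lie below 0. Of all tested genes, 47.3% were called higher and 46.7% lower.

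MPO lies in a stretch of chromosome 17 with changes in both directions. Of 8 tested genes within 500 kb, limma-trend called 3 higher and 5 lower, and their median was -0.56 (log2). Over all tested genes 47.3% were called higher and 46.7% lower, with a median of 0.14, so nothing is read from this split. Of 22 annotated protein-coding genes there, 6 were in the table. On chromosome 17 as a whole, 73.7% of 548 tested genes were called lower, with a median of -0.48. LPO, which encodes lactoperoxidase and ends 1337 bases from MPO, read 82.3, 87.4 and 133 in knockout and 143, 193 and 131 in control, so its groups overlapped. LPO was called lower (log2 fold change -0.63, SE 0.20, limma-trend adjusted p = 0.017), and the call ended without knockout 1 (adjusted p = 0.0838), without knockout 2 (0.0745) and without control 2 (0.14). LPO also overlaps MKS1, a gene of the ciliary transition zone, which fell to 423 ± 11.7 in knockout against 724 ± 37.8 in control (limma-trend adjusted p = 2.9e-07). On the other side, TSPOAP1, which encodes a binding protein of the mitochondrial translocator protein, rose (log2 fold change 0.59, SE 0.07, limma-trend adjusted p = 5.28e-07), and MTMR4, a lipid phosphatase gene, fell (log2 fold change -0.51, limma-trend adjusted p = 5.89e-06).

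Around RNASE2 on chromosome 14, 6 tested genes lay within 500 kb. Of 31 annotated protein-coding genes there, 5 were in the table. RNASE3 and AL355922.1 passed the minimum mean of 10 only through the knockout libraries, where they were high. Their values are therefore given without a p, and they are left out of the count here. The other 4 tested genes were called higher (limma-trend), with log2 fold changes of 0.15 to 0.85. Over all tested genes 47.3% were called higher and 46.7% lower. On chromosome 14 as a whole, 50.2% of 211 tested genes were called higher and 44.1% lower. RNASE3, which encodes eosinophil cationic protein, read 26.1, 21.8 and 21.5 in the knockout libraries and 1.02, 2.92 and 4.95 in the control libraries (log2 fold change 2.73, SE 0.59). AL355922.1, a noncoding RNA gene between RNASE3 and RNASE2, read 106, 105 and 94.3 in knockout and 11.2, 6.81 and 5.95 in control (log2 fold change 3.56, SE 0.34). RNASE2 shares identical runs of up to 67 bases with RNASE3 and 51 bases with AL355922.1, so reads could be assigned to the wrong one and the values of RNASE3 and AL355922.1 are uncertain. RNASE6, too low to be tested, read 1.04, 17.9 and 6.54 in knockout and 0, 0 and 0.991 in control. Beyond RNASE2, HNRNPC, which encodes a splicing protein, had a log2 fold change of 0.21 (limma-trend adjusted p = 0.00897, 0.0590 without control 2). LINC00641, a noncoding RNA gene, lay nearer on that side and had a log2 fold change of 0.85 (SE 0.14, limma-trend adjusted p = 4.06e-05).

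All 4 tested neighbours of LYZ within 500 kb were called higher, by less than LYZ, beside 47.3% of all tested genes. Of 7 annotated protein-coding genes there, 4 were in the table. CPSF6, which encodes an RNA cleavage factor subunit, and CCT2, which encodes a chaperonin subunit, had log2 fold changes of 0.36 and 0.37. BEST3, a low transcript of the bestrophin channel family, had 1.25 (limma-trend adjusted p = 0.00897, 0.0641 without control 2). Direction in the table also went with gene length. Among tested genes within 1.5 times the length of PRTN3, 57.3% of 438 were called higher and 36.3% lower (median log2 fold change 0.39). At the length of MPO 51.7% of 2850 were called higher and 42.0% lower (median 0.23), so MPO differed in the direction opposite to that median. With the trend on gene length taken off, PRTN3 was at 4.74 and MPO at -3.03.

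Other genes of azurophil granule proteins were mostly higher in knockout cells. Of 24 genes written in that list, 16 were in the table and tested. Of these, limma-trend called 15 higher and 0 lower (1 lower without knockout 3), and the median log2 fold change was 0.66, beside 0.14 over all tested genes. Over all tested genes 47.3% were called higher and 46.7% lower, and these shares also belong beside the list counts that follow. FUCA1, the lysosomal fucosidase, rose to 251 ± 26.1 in knockout against 58.5 ± 13.1 in control. PRSS57, the neighbour of the chromosome 19 trio, is also in this list. MAN2B1, the lysosomal alpha-mannosidase, rose to 7023 ± 331 in knockout against 3045 ± 165 in control, and ARSB, arylsulfatase B, to 655 ± 68.8 in knockout against 288 ± 1.29 in control. Their limma-trend adjusted p-values were 7.45e-09 for FUCA1, 2.48e-13 for MAN2B1 and 4.52e-09 for ARSB. The gene not called was GAA, the lysosomal alpha-glucosidase, singled out after its value was seen, at 3302 ± 176 in knockout and 3614 ± 139 in control. CTSG, which encodes cathepsin G, BPI and the defensin genes of the list were outside the table and not analysed here. Many genes of this list, MAN2B1 and FUCA1 among them, also act in ordinary lysosomes.

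Genes that process granule proteins and pack them into granules were mostly higher too. Of 20 genes written, 13 were tested, 11 were called higher and 1 lower, and the median log2 fold change was 0.39. Over all tested genes 47.3% were called higher and 46.7% lower, with a median of 0.14. SRGN, which encodes serglycin, the proteoglycan that holds proteases in the granule, rose to 478 ± 42.0 in knockout against 266 ± 26.2 in control (limma-trend adjusted p = 2.89e-06). CTSC, which encodes the dipeptidyl peptidase that activates the serine proteases, and CALR, which encodes a chaperone of the MPO precursor, were picked once their values were known. CTSC was at 5733 ± 269 in knockout and 4506 ± 106 in control, and CALR at 31462 ± 1278 in knockout and 20425 ± 92.0 in control. TCIRG1, a subunit of the proton pump of lysosomes, and LYST, whose loss gives giant granules in Chediak-Higashi syndrome, had log2 fold changes of 0.82 and 0.72. SORL1, a sorting receptor, fell to 47.2 ± 10.9 in knockout against 312 ± 28.9 in control (log2 fold change -2.72, SE 0.19, limma-trend adjusted p = 9.51e-11).

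Protease inhibitors of the list were also mostly higher: 5 of 6 tested genes were called higher and 0 lower, with a median of 0.93. The shares over all tested genes were 47.3% higher and 46.7% lower. CSTB, cystatin B, SERPINA1, the alpha-1 antitrypsin that inhibits elastase, and SERPINB6 had log2 fold changes of 0.98, 0.87 and 0.26. SERPINB1, the abundant inhibitor of elastase and proteinase 3 inside neutrophils, was not called, at 19514 ± 1279 in knockout and 17677 ± 111 in control, and was named after its value was seen.

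Peroxidases and their heme supply did not move as 1 block. The 3 tested heme peroxidase family genes were called lower, namely LPO with the limits given for it, and PTGS1 and PTGS2, the cyclooxygenases, at log2 fold changes of -1.05 and -1.79. Of 14 tested genes of heme synthesis and the NADPH oxidase, 9 were called higher and 5 lower, with a median of 0.37. Among all tested genes, 47.3% were called higher and 46.7% lower. HMOX1, heme oxygenase, is among the 9 and passed the minimum mean only through the knockout libraries (18.1 ± 10.1 in knockout, 2.95 ± 1.92 in control). Without knockout 3 the 5 lower were 3. The oxidase subunit NCF4 rose to 1049 ± 67.2 in knockout against 406 ± 30.6 in control (limma-trend adjusted p = 3.28e-11). CYBA, which encodes p22phox, rose to 8258 ± 551 in knockout against 3874 ± 213 in control. NCF1, whose reads its pseudogenes can share, rose to 443 ± 46.9 in knockout against 246 ± 26.4 in control and is uncertain for that reason. CYBB, the catalytic subunit, had a log2 fold change of 0.80, called at a limma-trend adjusted p of 0.019 with all libraries and not called without knockout 1 (0.0607) or without control 1 (0.12). The heme enzyme ALAD was lower and UROD higher, with log2 fold changes of -0.61 and 0.42, both picked after their values were seen.

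**Figure D4:**
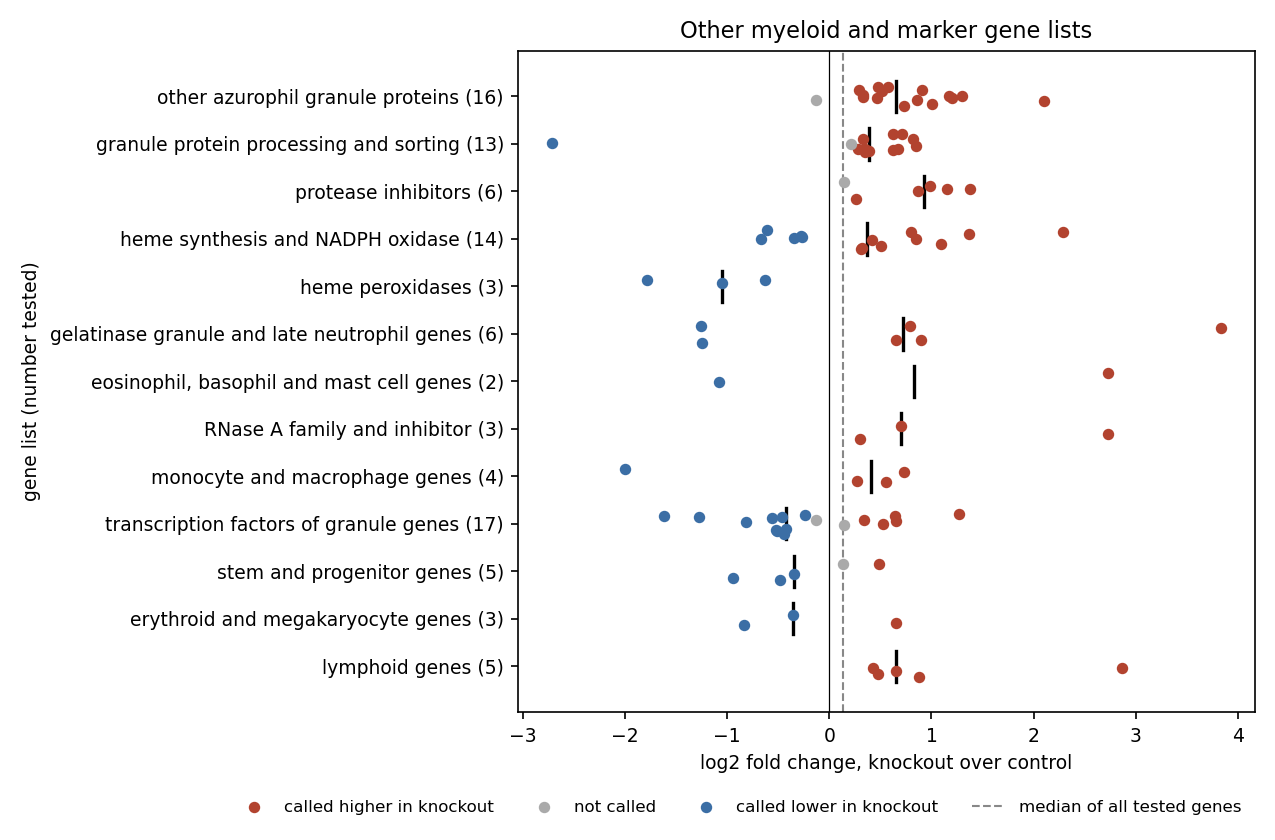
Log2 fold change (knockout over control) of each tested gene of the other lists, 1 row a list, coloured by whether it was called at adjusted p below 0.05. Black bars are list medians and the dashed line is the median of all tested genes, 0.14. In the top row 15 of 16 azurophil granule genes are called higher, and in the row of transcription factors 10 of 17 are called lower.

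Proteins of later granules were hardly represented. Of 16 genes of specific granules, made after the azurophil granule in neutrophil development, 0 were in the table, so that list was not analysed here. Of 6 tested genes of gelatinase granules and late neutrophils, 4 were called higher and 2 lower, with a median of 0.72. The shares over all tested genes were 47.3% higher and 46.7% lower. Among the 4, FPR2, a formyl peptide receptor, passed the minimum mean only through the knockout libraries (48.9 ± 6.41 in knockout, 2.99 ± 2.62 in control). CSF3R, the receptor of granulocyte colony-stimulating factor, rose to 2794 ± 53.9 in knockout against 1615 ± 60.2 in control (limma-trend adjusted p = 3.65e-10). QPCT, glutaminyl cyclase, had a log2 fold change of 0.90 and CXCR2, a chemokine receptor, 0.65, whose call ended without control 3 (adjusted p = 0.0659). SLC11A1, a metal transporter of phagosomes, fell to 50.9 ± 12.9 in knockout against 122 ± 26.7 in control. The other gene called lower, ITGAM, an integrin chain of neutrophils and monocytes, was at 27.5 ± 15.8 in knockout and 60.5 ± 7.22 in control and was named after its value was seen.

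Transcription factors known to act on granule genes went in both directions. Of 28 written, 17 were tested, 5 were called higher and 10 lower, in a table where 47.3% of tested genes were called higher and 46.7% lower. The median log2 fold change of the 17 was -0.42, beside 0.14 over all tested genes. CEBPE, the C/EBP factor of late granulocyte differentiation, had the largest positive change of the tested factors. It read 497, 546 and 534 normalized counts in the knockout libraries and 193, 209 and 252 in the control libraries (log2 fold change 1.27, SE 0.12, limma-trend adjusted p = 1.08e-08). EGR1, a factor of monocyte differentiation, fell to 46.1 ± 12.4 in knockout against 140 ± 7.50 in control. KLF5 fell to 66.0 ± 13.3 in knockout against 160 ± 21.1 in control, and RUNX2 to 988 ± 74.6 in knockout against 1745 ± 83.9 in control.

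Further factors were picked after their values were seen. SPI1, which encodes PU.1, was at 3563 ± 134 in knockout and 2474 ± 134 in control, and CEBPA at 258 ± 10.6 in knockout and 169 ± 50.9 in control (limma-trend adjusted p = 2.04e-07 and 0.0042). CEBPB (log2 fold change -0.47), CEBPG (-0.51) and GFI1 (-0.24), a repressor of neutrophil elastase, were lower. RUNX1 was at 6691 ± 524 in knockout and 4262 ± 82.8 in control. RUNX1T1 was not called (3054 ± 123 in knockout, 2760 ± 75.3 in control, limma-trend adjusted p = 0.054). The counts of RUNX1 and RUNX1T1 both hold reads of the fusion transcript, so neither stands for the unfused gene alone. IRF8, a factor of monocytes, was below the filter for testing, at 22.9, 12.9 and 18.7 in knockout and 0, 0.972 and 0 in control.

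**Figure D5:**
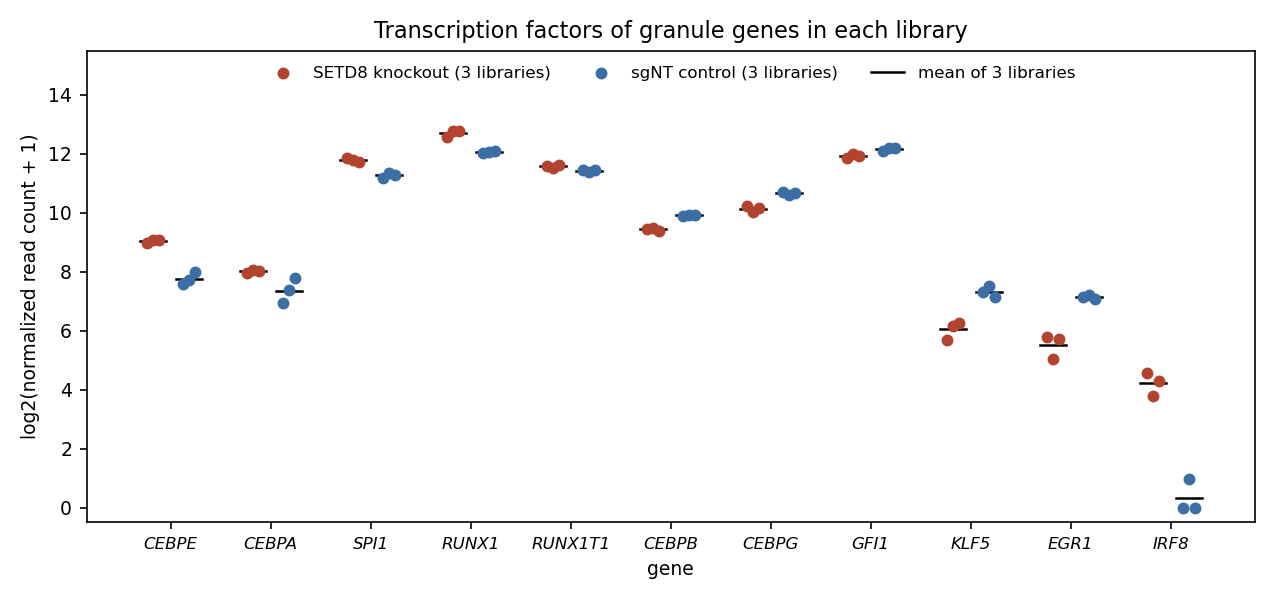
Level of 11 transcription factors of granule genes, as log2(normalized read count + 1), in 3 SETD8 knockout libraries (red) and 3 sgNT control libraries (blue), with black bars at the mean. CEBPE, CEBPA, SPI1 and RUNX1 lie higher in knockout, CEBPB, CEBPG, GFI1, KLF5 and EGR1 lower, and the 2 points of IRF8 at 0 are controls.

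Markers of other cell types gave no single direction. In the list of eosinophil, basophil and mast cell genes 2 of 16 were tested, RNASE3 called higher (with the limit of the minimum mean given for it) and HPGDS, prostaglandin D synthase, called lower (41.1 ± 5.03 in knockout, 87.9 ± 12.1 in control), while EPX, PRG2 and CLC were outside the table. In the list of ribonucleases and their inhibitor 3 were tested and 3 called higher. They were RNASE3, with the same limit, RNASET2 at a log2 fold change of 0.70 and RNH1, the inhibitor that binds RNASE2, at 0.30. RNASET2 is not of the RNase A family, so nothing is read from this count about the relatives of RNASE2. Of 4 tested monocyte and macrophage genes 3 were called higher and 1 lower, with MS4A7 at 0.55, FCGR1A at 0.27 and CSF1R at 0.73, whose call ended without control 1 (adjusted p = 0.0881). The lower one, VCAN, named after its value was seen, was at 8.10 ± 4.36 in knockout and 33.3 ± 5.98 in control and passed the minimum mean only through the control libraries. CD14, S100A8 and S100A9 were outside the table.

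Of 5 tested stem and progenitor genes 1 was called higher and 3 lower: ERG at 0.49, and FLT3, KIT and MSI2 at -0.95, -0.48 and -0.35. With the gene length trend removed, MSI2 was at -0.05 and not called, and the list had 2 higher and 2 lower. Of 3 tested erythroid and megakaryocyte genes 1 was called higher, EPOR at 0.65, and 2 lower, ITGA2B at -0.84 and TFRC at -0.36. All 5 tested lymphoid genes were called higher, among them CD79B at 2.87, CD79A at 0.65 and PAX5 at 0.48. Over all tested genes 47.3% were called higher and 46.7% lower. The part of these markers in the differences of the granule genes was not tested.

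By the root mean square difference between 6-library log2 profiles, each set to its control mean, the profiles nearest to MPO were those of CD109 (0.14), KLF12 (0.14) and MEX3B (0.19), all lower in knockout. CD109 encodes a surface protein that binds TGF-beta and KLF12 a zinc finger repressor. Nearest to PRTN3 were OCIAD2 (0.32), EMC10 (0.45) and HSBP1L1 (0.46), with EMC10 a subunit of the membrane protein insertion complex of the endoplasmic reticulum. AZU1 was nearest to AL355922.1 (0.21), whose values are uncertain as given above, RNASE2 (0.32) and SLAMF8 (0.32). Its distances to PRTN3 and ELANE, its neighbours on chromosome 19, were 1.05 and 1.18. RNASE2 was nearest to CSTA, which encodes the protease inhibitor cystatin A (0.15), then GSPT2 (0.20) and RBMS1 (0.27). ELANE was nearest to FUCA1 (0.31), SLC12A8 (0.32) and PRKCD (0.35), and LYZ to ZNF468 (0.50), SPINT1 (0.72) and AC007278.1 (0.75). These distances are descriptions over 6 libraries that share 1 contrast. They largely restate the fold changes on which the members were chosen, so nothing is read from which members lie close. The genes compared had a mean of at least 50. Several passed it only through the group where they were high, such as AL355922.1 (mean 8.00 in control) and MEX3B (mean 23.7 in knockout).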

How the data were processed

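RNA from 6 libraries was analysed. Per the labels' protocols, polyadenylated RNA was sequenced from directional libraries. HISAT2, DESeq2 and the hg38 build are named, per the submitters' processing notes, without versions or a counting tool. The authors deposited 1 signal value per gene and library, the read count divided by a size factor, and dividing by the worth of 1 read gave whole numbers within 0.001 for 100% of values. For knockout 2 and control 3 that worth is so near 1 that whole reads are less certain. The authors' own log2 fold changes were deposited beside the values. The deposited p-value and its adjusted form imply 19860 genes adjusted over, and the table lists only genes with an unadjusted p up to 0.049998. Other genes were not analysed here, and shares called in the table are therefore high.

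A minimum mean of 10 left 7516 of 7983 genes. These were tested two-sided on log2(value + 1) by limma-trend (R 4.3.3 with limma 3.58.1), with Benjamini-Hochberg adjustment over 19860 genes, called below 0.05. All 6 members passed that minimum, ELANE and LYZ through their knockout libraries. Depth was 10966349 to 12557974 reads in listed genes. The members, the 14 other lists and the naming rule (up to 4 called genes a list by size of change, with a minimum mean of 50, the 2 nearest genes on each side of a locus, the 3 nearest profiles) were chosen with earlier results of these data known. Alternatives were TMM and upper-quartile scaling, edgeR 4.0.16 and DESeq2 1.42.0 on recovered reads, different filters and pseudocounts, a gene length trend, a replicate block, other windows and leaving out each library.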

Additional observations from a re-analysis of the deposited data

How the results depend on the processing

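Of 748 values recomputed for 46 results, 722 were labelled the same and 26 moved, and none reversed. The label of same allowed some change in size. Without knockout 2 the genes called higher were 3053, in place of 3557. With a pseudocount of 5 the log2 fold change of ELANE was 1.62, in place of 2.03. With upper-quartile scaling the log2 fold change of MPO was -3.04, with the gene length trend removed that of PRTN3 was 4.74, and with a pseudocount of 5 that of LYZ was 2.54. Leaving out 1 library gave log2 fold changes of -3.01 to -2.97 for MPO, 4.78 to 4.98 for PRTN3, 3.37 to 3.65 for AZU1, 1.64 to 2.31 for ELANE, 3.11 to 4.39 for LYZ and 3.24 to 3.54 for RNASE2. It gave 0 to 1 lower azurophil granule genes and 3 to 5 lower heme and oxidase genes. With upper-quartile scaling, and with adjustment over the table's genes only, 1 azurophil granule gene was lower. With a minimum mean of 50, 3 protease inhibitors were higher, 1 late neutrophil gene was lower, 0 eosinophil, basophil and mast cell genes were higher and 0 monocyte genes were lower. With no filter, 2 eosinophil, basophil and mast cell genes were lower and 2 erythroid and megakaryocyte genes higher. Stem and progenitor genes had 2 higher with the gene length trend removed, with adjustment over the table's genes only and with DESeq2. Within 200 kb, called neighbours were 8 higher and 0 lower at the chromosome 19 trio, 2 higher and 2 lower at MPO, and 1 higher and 0 lower at LYZ. At RNASE2 the only tested genes within 200 kb were RNASE3 and AL355922.1, so no count is given there. Within 1000 kb they were 32 higher and 2 lower at the trio, 3 higher and 11 lower at MPO, and 7 higher and 0 lower at LYZ. At RNASE2 they were 8 higher and 4 lower, with RNASE3 and AL355922.1 among the 8. A window changes which genes are counted, and over all tested genes 47.3% were called higher and 46.7% lower. As a share of protein-coding listed counts, the 6 genes took 0.112% in control, in place of 0.109% of all listed counts. Beyond these, the cause was not tested. Same-numbered libraries did not deviate together (correlations of 0.0086, -0.0033 and -0.0499), and libraries of other numbers gave -0.031 to 0.036. This cannot exclude that same-numbered libraries were handled together, since the labels do not say what the numbers mean. With the replicate block 3569 genes were higher and 3522 lower, in place of 3557 and 3513. Of 950 values for 56 other named genes, 940 kept their call and 10 lost it, among them MSI2 with the gene length trend removed (-0.05). Reads limit ELANE and LYZ most, with 25 and 7 reads over the control libraries.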
